A study of Mus musculus with 12 samples.

Results

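Regions with different 5-hydroxymethylcytosine (5-hmC) were collected for 10 genes of DLK-JNK axon injury signalling in dorsal root ganglia of the mouse, which hold the cell bodies of sensory neurons. The members were chosen by gene name: the kinases Map3k12 and Map3k13, the kinases Map2k4 and Map2k7 below them, the JNK genes Mapk8, Mapk9 and Mapk10, the scaffolds Mapk8ip1 and Mapk8ip3, and Sarm1. Of 70430 regions listed in 3 pairwise tables, 34 were named for a member, and 7 of the 10 members had at least 1. Single tables held a region for 20.2% to 38.3% of all protein-coding genes. For genes within the members' range of length this was 27.1% to 51.1%. The share over the 3 tables together is not given here. Map3k13, Map2k7 and Sarm1 had none in any table.

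The groups were PL, ganglia taken 24 h after a peripheral lesion of the sciatic nerve, DCL, ganglia taken 24 h after a lesion of the central branch in the dorsal column, and uninjured ganglia of the other side of PL animals as the control. The labels give no genotype, strain or age. Each group had 3 libraries of DNA enriched for 5-hmC, and each library came from ganglia (L4 to L6) of 3 pooled animals. The control therefore shares its animals with PL and not with DCL, and it comes from animals with an injury on the other side.

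DLK, the product of Map3k12, is a kinase that senses damage to an axon. It phosphorylates the kinases encoded by Map2k4 and Map2k7, which activate the c-Jun N-terminal kinases (JNK), and scaffold proteins of the JIP family hold the cascade together and tie it to axonal transport. In sensory neurons the pathway is known for carrying the injury signal back to the nucleus and for driving both regrowth and degeneration programmes. 5-hmC is the oxidised form of 5-methylcytosine made by TET enzymes, and it is common in neuronal gene bodies. The tables hold DNA marks only, so nothing here measures the RNA or protein of these genes.

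Each value below is a normalised read count of a region of 200 to 360 bp in 1 library, in the order in which the tables list the libraries, and a log2 ratio is that of the group means. Adjusted p-values are from the authors' deposited tables, which list only regions already selected for a difference, so they are a description and no further test was made. Even alone, 3 libraries against 3 could not go below p = 0.1 in a two-sided exact permutation test. The value of 1 read differed between libraries: it was 0.907 to 1.77 in PL libraries and 0.576 to 1.05 in control libraries of the PL table. In the DCL table it was 3.14, 1.49 and 0.658 in the DCL libraries and 0.534 to 0.975 in the control libraries, so the first-listed DCL library was the shallowest by this measure, and its reads were multiplied most. Ganglia hold several cell types, and a shift in their shares cannot be told apart from a change of 5-hmC within cells. The tables were scaled separately, so levels are compared within a table only.

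After PL, member genes carried regions in both directions and in few places. There were 7 regions in 5 members, 4 higher and 3 lower than control, in a table with 50.4% higher and 49.6% lower regions. Of all protein-coding genes, 20.2% had a region in this table, 12.6% a higher one and 11.8% a lower one, and of genes within the members' range of length 27.1% had one. Higher regions lay in Mapk9, Mapk10, Mapk8ip1 and Mapk8ip3, and lower ones in Map2k4, Mapk9 and Mapk10. All 7 had their PL libraries beyond all control libraries, as had 95.6% of all listed higher regions and 100% (6066 of 6067) of lower ones. An adjusted p under 0.05 stood in the authors' deposited table for 3 of the 4 higher and all 3 lower member regions, against 98.1% and 99% of the table, and under 0.01 in 1 of each, against 47.1% and 51.8%. The median log2 ratio was 1.06 in the 4 higher and −1.41 in the 3 lower member regions, against 1.27 and −1.65 over all listed regions of each direction.

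**Figure D1:**
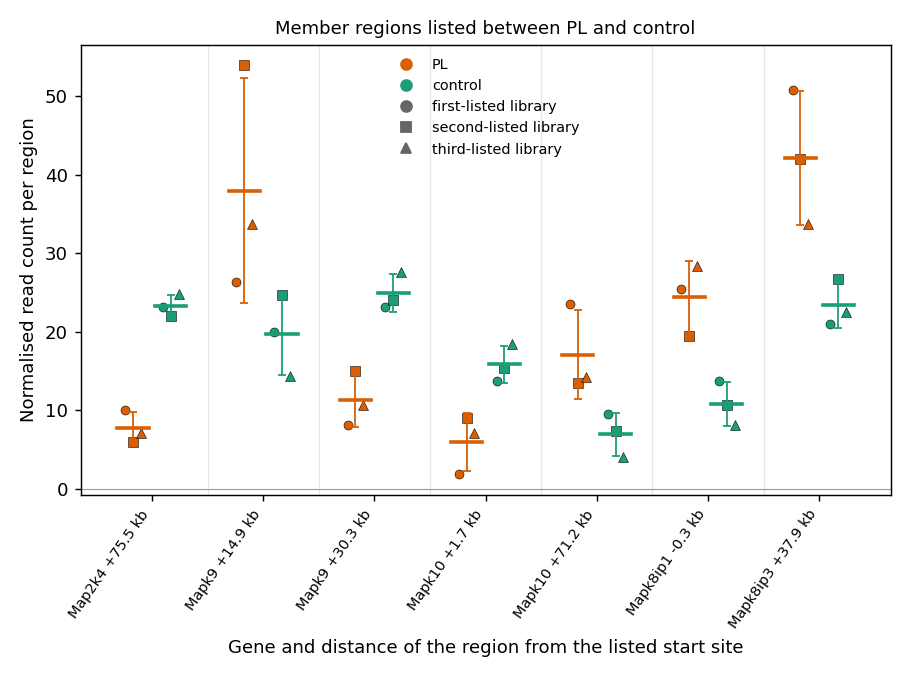
Normalised read counts of the 7 member regions listed between PL (left of each pair) and control (right of each pair), with symbols for single libraries, a bar for the mean and whiskers for the SD of 3 libraries. In every region the PL libraries lie wholly above or wholly below the control libraries, and Mapk9 and Mapk10 each have 1 region of either kind.

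After DCL, 18 regions lay in 6 members, 16 higher and 2 lower than control. Of all protein-coding genes 38.3% had a region in this table, 35.4% a higher one and 11.9% a lower one, and of genes within the members' range of length 51.1% had one. Of all regions listed, 82.9% were higher after DCL, so the share among the members was near that of the table. Mapk8ip3 and Mapk10 had 5 regions each, Mapk9 had 3, Map2k4 and Mapk8 had 2, and Map3k12 had 1. The first-listed DCL library was the highest of the 3 in 14 of the 16 higher member regions and in 85.9% of all higher regions. All DCL libraries lay above all control libraries in 7 of the 16, against 46.5% of all higher regions. Both lower regions, in Mapk8 and Mapk10, had all libraries apart, as had 99.7% of all lower regions. The adjusted p of the authors' deposited table was under 0.05 in 15 of the 16 higher and both lower regions, against 97.6% and 99.6% of all.

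**Figure D2:**
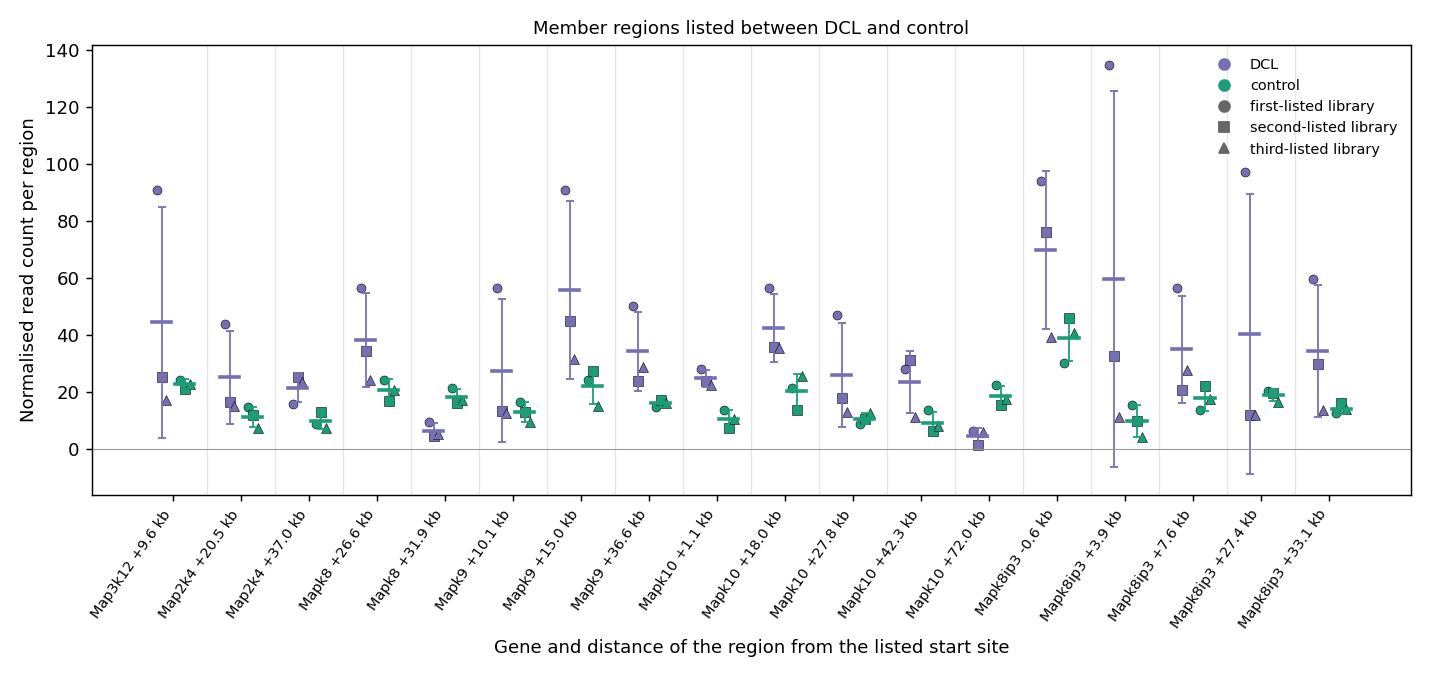
Normalised read counts of the 18 member regions listed between DCL (left of each pair) and control (right of each pair), with symbols for single libraries, a bar for the mean and whiskers for the SD of 3 libraries. The first-listed DCL library, drawn as a circle, reaches 134.87 in Mapk8ip3 and is the highest DCL value in 14 of the 16 higher regions.

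Set directly against DCL, PL was lower in all 9 member regions, in 4 members, with none higher. Here 75.1% of all listed regions were lower after PL, and 30.7% of protein-coding genes had a region, 26.1% a lower and 11.7% a higher one. Of genes within the members' range of length 41.3% had one. The median log2 ratio of the 9 was −1.50, against −1.52 over all lower regions. The libraries were apart in 5 of the 9, against 59% of all lower regions, and the deposited adjusted p was under 0.05 in all 9, against 98.2%. PL and DCL each share their libraries with another table, so these regions are not independent of those above.

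**Figure D3:**
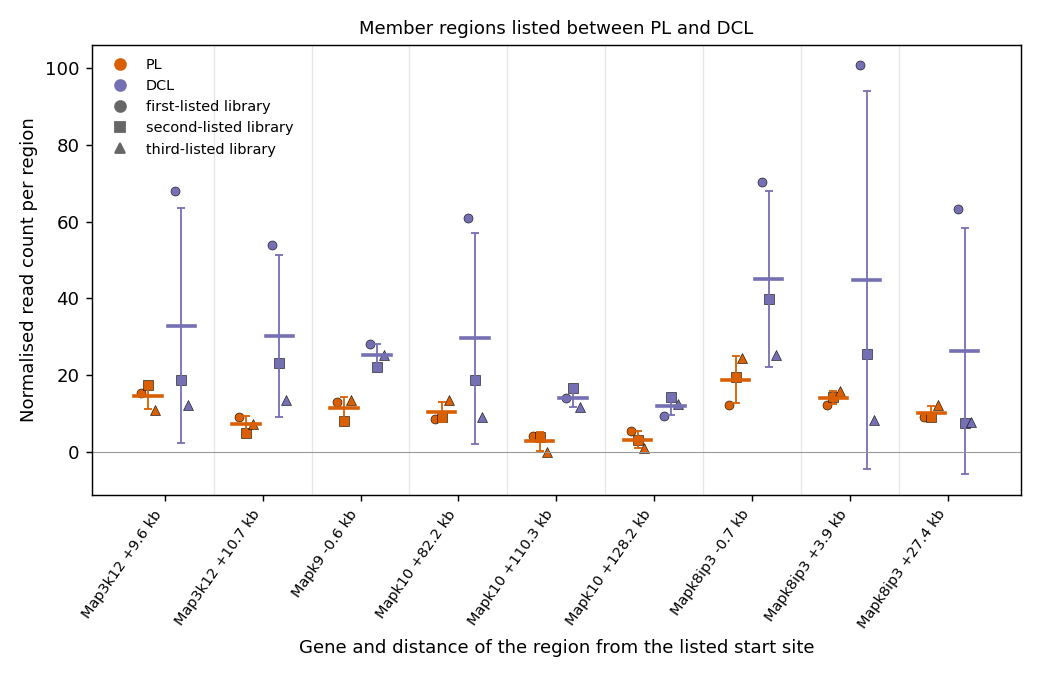
Normalised read counts of the 9 member regions listed between PL (left of each pair) and DCL (right of each pair), with symbols for single libraries, a bar for the mean and whiskers for the SD of 3 libraries. PL means are below DCL means in all 9, and the first-listed DCL library is the highest DCL value in 7 of them.

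The scaling of the libraries bears on every table with DCL. With libraries rescaled to equal sums over the listed regions of a table, 2 of the 16 member regions higher after DCL kept direction and a 1.5-fold difference, against 22% of all higher regions: those in Map2k4 37.0 kb and in Mapk8ip3 3.86 kb from the start. Both lower regions, in Mapk8 and Mapk10, kept it, as did 100% of lower regions. Between PL and DCL 3 of 9 kept it, against 53% of all lower regions: 1 in Map3k12 and 2 in Mapk10. All 7 regions between PL and control kept it, against 96.3% of higher and 100% of lower regions. Between DCL and control 82.9% of listed regions were higher, and between PL and DCL 75.1% were lower after PL. By construction, equal sums over such lists lower the DCL group relative to the other group. This favours losing these regions and keeping those of the other direction. The first-listed DCL library is lowered most. Its median in regions higher after DCL was 62.7, against 26.9 and 18.4 in the other DCL libraries. Control medians there were 15.0 to 16.6. The counts kept therefore cannot decide whether a difference was real. Which scaling is nearer to the true levels was not tested.

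Map3k12, which encodes DLK, carried regions only where DCL was one of the groups, all in the middle of its gene body of 19.4 kb on chromosome 15 (mm9). Between DCL and control 1 region was listed, at chr15:102337701-102338040. It had 91.0, 25.4 and 17.1 in DCL libraries, against 24.4, 21.1 and 23.0 in control libraries (44.5 ± 40.5 against 22.8 ± 1.66, SD, n = 3 each). The first-listed DCL library stood far above control, the second-listed was just above the highest control library and the third-listed below the lowest. The log2 ratio was 0.96 with the first-listed DCL library and −0.10 without it, at a deposited adjusted p of 0.00112. An overlapping region was listed between PL and DCL, with 15.49, 17.48 and 11.04 in PL libraries against 67.9, 18.8 and 12.2 in DCL libraries. Those groups overlapped too, and the log2 ratio of −1.17 was −0.08 without the first-listed DCL library.

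A second Map3k12 region, 840 bp from the first, separated the lesions. At chr15:102336601-102336860 it had 9.30, 5.14 and 7.36 in PL libraries, against 53.9, 23.3 and 13.7 in DCL libraries (7.27 ± 2.08 against 30.3 ± 21.0, SD, n = 3 each). All PL libraries were below all DCL libraries. The log2 ratio was −2.06 at an adjusted p of 0.000260 in the authors' deposited table, −1.34 without the first-listed DCL library and −1.06, still apart, after rescaling. The PL values there rest on 15, 5 and 6 reads. Only 12.5% of all regions lower after PL had a larger log2 ratio in size. Map3k13, which encodes the related leucine zipper kinase LZK, had no listed region in its 109 kb, although 90.1% of protein-coding genes are shorter.

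Map2k4, which encodes MKK4, a kinase that phosphorylates JNK, was lower after PL at one place and higher after DCL at others. The PL region, at chr11:65526221-65526460 and 75.5 kb from the listed start, had 9.97, 6.00 and 7.10 in PL libraries against 23.2, 22.0 and 24.8 in control libraries. The groups were far apart, with a log2 ratio of −1.60 at a deposited adjusted p of 0.00691, the smallest of the 7 member regions in that table. The PL values there rest on 11, 4 and 4 reads. Between DCL and control, the region at chr11:65564701-65564900 had 15.7, 25.4 and 23.7 in DCL libraries, against 8.77, 13.0 and 7.48 in control libraries. Here the first-listed DCL library was the lowest of the 3, and the log2 ratio was 1.15 with it, 1.33 without it and 0.61, with overlapping groups, after rescaling (adjusted p = 0.00195 in the authors' deposited table). The other Map2k4 region after DCL, 20.5 kb from the start, had a log2 ratio of 1.16, and 0.48 without that library. Map2k7, which encodes the other JNK kinase MKK7, had none. At 9.16 kb it is the shortest member, and 34.3% of protein-coding genes are shorter.

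Mapk8, which encodes the widely expressed kinase JNK1, had regions between DCL and control only. The lower one, at chr14:34192261-34192460 near the far end of the listed transcript, had 9.41, 4.48 and 5.26 in DCL libraries against 21.4, 16.1 and 17.1 in control libraries. No DCL library reached the lowest control library, and the log2 ratio was −1.51 at a deposited adjusted p of 0.00227. The DCL values there rest on 3, 3 and 8 reads. The higher Mapk8 region, 26.6 kb from the start of a longer listed transcript, had a log2 ratio of 0.89 with overlapping libraries.

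Mapk9, which encodes JNK2, had the only region listed for a member against control after both lesions. At chr11:49675041-49675320 in its gene body, PL libraries had 26.3, 54.0 and 33.7 against 20.0, 24.7 and 14.4 in control libraries. The overlapping region of the DCL table, chr11:49675061-49675400, had 91.0, 44.8 and 31.6 in DCL libraries against 24.4, 27.3 and 15.0 in control libraries. Both lesions stood above the same control libraries, with log2 ratios of 0.95 for PL and 1.33 for DCL, and 0.78 for DCL when its first-listed library was left out. Rescaled, they were 0.69 for PL, with overlapping groups, and 0.43 for DCL, still apart. The adjusted p in the authors' deposited tables was 0.0551 for PL, which misses 0.05, and 0.000267 for DCL.

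The other 4 Mapk9 regions were each listed in 1 table only. A region 30.3 kb from the start, chr11:49690401-49690660, was lower after PL, with 8.16, 15.0 and 10.7 in PL libraries against 23.2, 24.1 and 27.7 in control libraries (log2 ratio −1.15, adjusted p = 0.0174 in the authors' deposited table). A region 36.6 kb from the start was higher after DCL, with a log2 ratio of 1.10 and all libraries apart. This log2 ratio was 0.72 without the first-listed DCL library and 0.32, with overlapping groups, after rescaling. The region 10.1 kb from the start had a log2 ratio of 1.07 between DCL and control that was −0.011 without the first-listed DCL library. In the promoter, chr11:49659561-49659800, PL libraries had 13.0, 8.23 and 13.5 against 28.1, 22.2 and 25.4 in DCL libraries. All PL libraries were below all DCL libraries as deposited, with a log2 ratio of −1.12, and −1.04 when the first-listed DCL library was left out (adjusted p = 0.00542 in the authors' deposited table). With libraries rescaled it was −0.46, under 1.5-fold, and the groups overlapped. No region of this promoter was listed for either lesion against control.

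Mapk10, which encodes JNK3, the JNK found mainly in the nervous system, is the longest member at 304 kb and had the most regions, 10. Just inside its start, regions 320 bp from each other went opposite ways against control. At chr5:103638561-103638760, placed in the promoter class by the tables although 1693 bp inside the gene, PL libraries had 1.81, 9.0 and 7.10 against 13.7, 15.4 and 18.4 in control libraries. All PL libraries were below control, at 2, 6 and 4 reads, with a log2 ratio of −1.41 and a deposited adjusted p of 0.0130. At chr5:103639081-103639380, 1123 bp inside the gene, DCL libraries had 28.2, 23.9 and 22.4 against 13.7, 7.44 and 10.7 in control libraries. These DCL libraries lay close together and all above control, and the log2 ratio of 1.23 was 1.13 when the first-listed DCL library was left out (adjusted p = 0.00166 in the authors' deposited table). With libraries rescaled this log2 ratio was 0.56 and the groups overlapped. Neither place was listed in the direct comparison of PL with DCL, so the lesions are not shown to differ there.

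Deeper in Mapk10, the higher region after PL, at chr5:103569061-103569260, had 23.6, 13.5 and 14.2 in PL libraries against 9.47, 7.35 and 4.03 in control libraries, with a log2 ratio of 1.30. It shared its deposited adjusted p of 0.0130 with the lower region near the start. The smallest adjusted p of Mapk10 between DCL and control belonged to the region near the start. The only lower one, at chr5:103415141-103415420, had 6.27, 1.49 and 5.92 in DCL libraries against 22.4, 15.5 and 17.6 in control libraries. These did not overlap, with a log2 ratio of −2.02 at a deposited adjusted p of 0.001999. The DCL values there rest on 2, 1 and 9 reads. The remaining 3 higher regions after DCL had log2 ratios of 1.07 to 1.35. Of these, the region 18.0 kb from the start had all DCL libraries above control, as had that 27.8 kb from another listed start. In the region 42.3 kb from that other start the groups overlapped. Without the first-listed DCL library the log2 ratios were 0.82, 0.54 and 1.20 in this order. After rescaling they were 0.33, 0.30 and 0.56, each with overlapping groups.

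PL was lower than DCL at 3 places in Mapk10. At chr5:103558001-103558260 it had 8.68, 9.26 and 13.5 in PL libraries against 60.9, 18.8 and 9.27 in DCL libraries, the smallest adjusted p of the gene in this table (0.000803, as the authors deposited it). That region rested on one library: its log2 ratio of −1.50 was −0.42 without the first-listed DCL library. The other 2 did not. At chr5:103529881-103530140 PL libraries had 4.34, 4.11 and 0 against 14.1, 16.6 and 11.7 in DCL libraries, and the log2 ratio was −2.33 both with and without the first-listed DCL library, and −1.62 after rescaling. At chr5:103359061-103359280 the log2 ratio was −1.88, −2.04 without it and −1.27 after rescaling. After rescaling the groups overlapped at both places. The PL values at these places rest on 0 to 9 reads.

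Mapk8ip1, which encodes JIP1, the first scaffold described for the JNK module, had a single region, in the tables' promoter class 270 bp before the listed start. The listed transcript spans 9.01 kb, against 17.7 kb for the gene on GRCm38.p6, so this start may lie inside the longer gene. At chr2:92232981-92233240, PL libraries had 25.4, 19.5 and 28.4 against 13.7, 10.7 and 8.07 in control libraries (24.4 ± 4.53 against 10.8 ± 2.81, SD, n = 3 each). Every PL library was above every control library, with a log2 ratio of 1.18 at a deposited adjusted p of 0.00697. By the tables' classes it was the only member promoter region that was higher after PL than in control, and no region of Mapk8ip1 was listed in the tables with DCL.

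Mapk8ip3, which encodes JIP3, a scaffold that also links cargo to kinesin and dynein on axonal microtubules, had 9 regions in 39.5 kb, or 22.8 per 100 kb of gene length. Over all members there were 4.62 per 100 kb, and over all protein-coding genes 4.22. Map3k12 and Mapk9 had 15.5 and 15.1, and the other members with a region 2.88 to 5.66. The 9 are not separate places. All 3 Mapk8ip3 regions between PL and DCL overlap one between DCL and control, with the same DCL libraries. The only Mapk8ip3 region between PL and control lay at the far end of the gene, chr17:25035901-25036120. It had 50.8, 42.0 and 33.7 in PL libraries against 21.0, 26.7 and 22.5 in control libraries. PL libraries were all higher, by a log2 ratio of 0.85 at a deposited adjusted p of 0.0153. After rescaling it was 0.64 and the groups overlapped.

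After DCL, 5 Mapk8ip3 regions were higher than control, and in each the first-listed DCL library was the highest of the 3. The region with the smallest deposited adjusted p (0.000313), chr17:25046401-25046640, had 97.2, 11.95 and 11.8 in DCL libraries against 20.5, 19.8 and 16.6 in control libraries. The other two DCL libraries were below all control libraries, so the log2 ratio of 1.09 turned to −0.67 without the first-listed one. The same stretch was listed as lower after PL, with 9.30, 9.26 and 12.3 in PL libraries against 63.2, 7.75 and 7.80 in DCL libraries. It also turned, with a log2 ratio of −1.35 with the first-listed DCL library and 0.40 without it (adjusted p = 0.00427 in the authors' deposited table).

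At chr17:25069961-25070160, 3.86 kb inside Mapk8ip3, DCL libraries had 135, 32.9 and 11.2 against 15.6, 9.92 and 4.27 in control libraries. Its log2 ratio of 2.59 was exceeded in size by only 0.205% of all higher regions of the table, and it became 1.15 once the first-listed DCL library was left out and 1.36 after rescaling (adjusted p = 0.000888 in the authors' deposited table). The third-listed DCL library, at 11.2, lay within the control range. Against PL, the overlapping region had 12.4, 14.4 and 16.0 in PL libraries against 101, 25.5 and 8.29 in DCL libraries. Groups overlapped there too, and the log2 ratio of −1.65 was −0.25 when the first-listed DCL library was left out (adjusted p = 0.000260 in the authors' deposited table).

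The Mapk8ip3 promoter was listed in both tables with DCL. At chr17:25074341-25074700, DCL libraries had 94.1, 76.2 and 39.5 against 30.2, 45.9 and 40.6 in control libraries. The deposited adjusted p was 0.0687, which misses 0.05, and the groups overlapped through the third-listed DCL library. Between the lesions, chr17:25074501-25074720 had 12.4, 19.5 and 24.5 in PL libraries against 70.2, 39.9 and 25.4 in DCL libraries. These groups did not overlap, though the highest PL and the lowest DCL library were close, and the log2 ratio of −1.26 was −0.79 when the first-listed DCL library was left out (adjusted p = 0.000880 in the authors' deposited table). After rescaling it was −0.40, under 1.5-fold, with overlapping groups. The remaining 2 regions of Mapk8ip3, 33.1 kb and 7.57 kb from the start, had log2 ratios of 1.28 and 0.97 between DCL and control, and 0.62 and 0.44 without that library.

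Sarm1, the NAD-cleaving enzyme that executes axon degeneration and acts beside the JNK cascade, had no listed region in its 27.5 kb in any table. An unlisted gene is one where no window passed the authors' selection, which does not show that its 5-hmC was alike between groups.

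**Figure D4:**
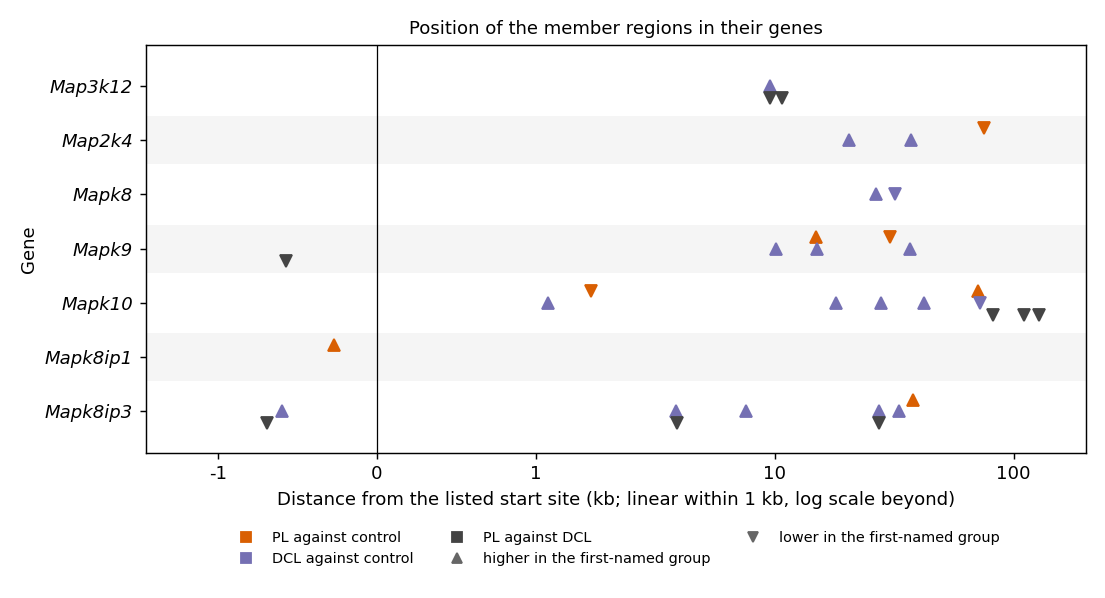
Position of all 34 member regions relative to the start site the tables list (kilobases, linear within 1 kb and logarithmic beyond), with 1 row per gene, colour for the comparison and triangles pointing up for higher and down for lower in the first-named group. Of the regions, 28 lie in gene bodies and 6 in the tables' promoter classes, in Mapk9, Mapk10, Mapk8ip1 and Mapk8ip3. For Mapk8 and Mapk10 the listed start differs between regions, with listed spans of 33.1 or 69.3 kb and of 150 or 303 kb. Equal distances on those rows can therefore be different places.

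Of the member regions listed against control, 1 of 7 after PL overlapped one after DCL, against 8.48% of all PL regions, and 1 of 18 after DCL overlapped one after PL, against 2.99% of all DCL regions. Of regions between the lesions 4 of 9 overlapped one between DCL and control, against 48.2% of all. Regions of different tables overlapped by at least 1 bp in 5 pairs: Mapk9 after both lesions, and 4 places in Map3k12 and Mapk8ip3 where a region higher in DCL than control was also lower in PL than DCL. The DCL libraries are the same in both tables of those 4 pairs, so each pair repeats a measurement of them.

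The start-site sequences of Mapk9, Mapk8ip3 and Mapk10 are shown because promoter regions with a difference between lesions, or against control, lay beside them. The letters are from RefSeq on GRCm38.p6 and run from 250 bases before to 50 after the start. CpG, where 5-hmC is mostly found in mammals, is in capitals. The span of the transcript in the tables, on mm9, equals that from these starts for Mapk9 and Mapk8ip3 and differs by 2 bp for Mapk10. The Mapk9 region lay 453 to 692 bp before its start, the nearest Mapk8ip3 region 419 to 778 bp before, and the nearest Mapk10 region 973 to 1272 bp inside, so the listed regions lie outside these windows. No window of Mapk8ip1 was at hand.
Mapk9, chr11:49846501-49846800, + strand: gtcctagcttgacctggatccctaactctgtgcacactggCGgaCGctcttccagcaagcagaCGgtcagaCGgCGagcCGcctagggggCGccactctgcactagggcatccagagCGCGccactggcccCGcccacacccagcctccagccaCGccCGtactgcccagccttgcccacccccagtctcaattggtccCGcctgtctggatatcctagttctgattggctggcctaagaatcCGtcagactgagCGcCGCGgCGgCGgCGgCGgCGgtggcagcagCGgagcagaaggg
Mapk8ip3, chr17:24936928-24937227, − strand: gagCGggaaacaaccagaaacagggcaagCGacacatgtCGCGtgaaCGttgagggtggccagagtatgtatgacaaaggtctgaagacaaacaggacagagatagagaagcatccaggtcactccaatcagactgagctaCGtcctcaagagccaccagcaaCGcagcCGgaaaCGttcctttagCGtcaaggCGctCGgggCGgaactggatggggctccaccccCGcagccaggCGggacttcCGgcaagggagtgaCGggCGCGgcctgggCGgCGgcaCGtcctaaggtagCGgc
Mapk10, chr5:103211285-103211584, − strand: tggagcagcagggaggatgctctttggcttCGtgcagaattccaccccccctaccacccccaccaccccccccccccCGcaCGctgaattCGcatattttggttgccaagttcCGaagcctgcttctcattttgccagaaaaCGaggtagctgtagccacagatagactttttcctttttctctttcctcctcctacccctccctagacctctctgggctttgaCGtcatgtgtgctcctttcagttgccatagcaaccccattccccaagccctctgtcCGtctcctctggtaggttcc

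The Mapk9 and Mapk8ip3 windows each held 23 CpG, as many as or more than which 21.5% of 32851 mouse windows held, and the Mapk10 window held 8, a number reached by 48.7%. TGANTCA, where N is any base, was in none of these 3 windows. It is wider than the AP-1 site of Jun and Fos dimers, in which N is C or G. TGACGTCA, the site of Jun and ATF dimers, was in the window of Mapk10. Both motifs read the same on either strand, and neither contains the other. Over all mouse windows, 7.81% held the first and 1.79% the second. Among 14 windows of 9 members, the first was found in 1, of Map2k7, and the second in 1, of Mapk10. The Map2k7 match reads TGATTCA, which is not the AP-1 site.

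**Figure D5:**
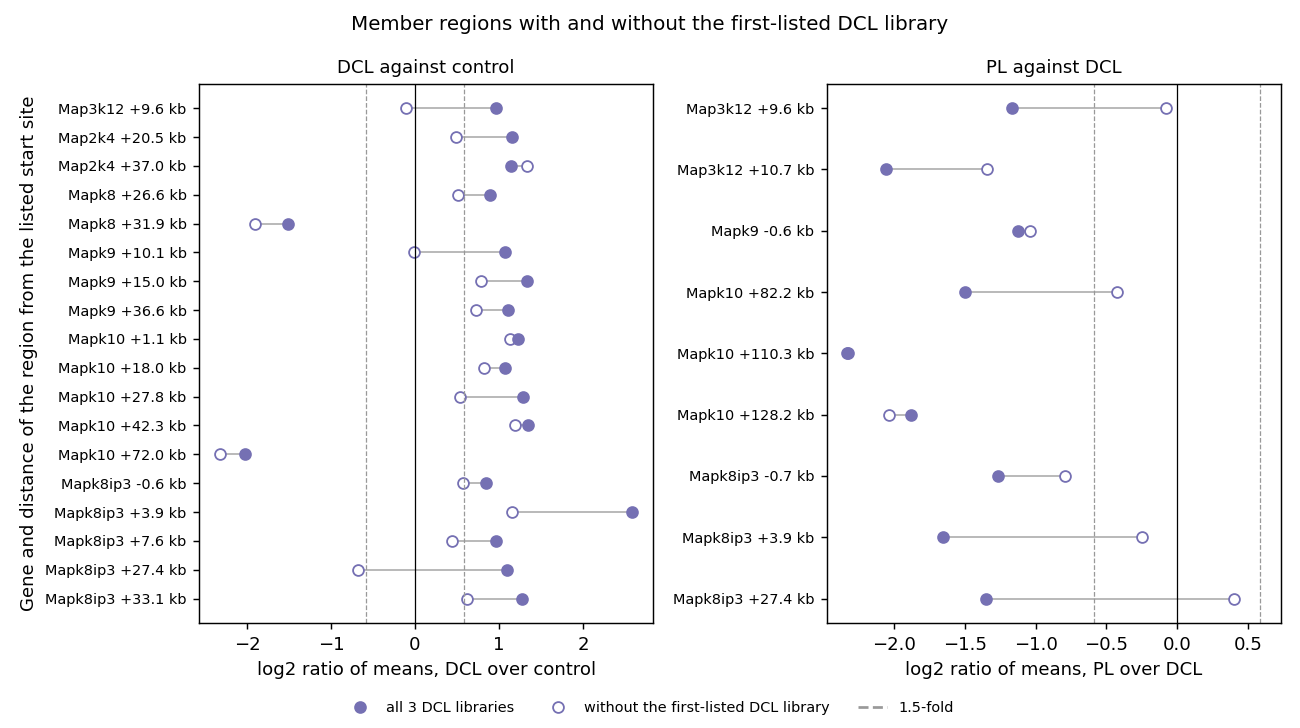
log2 ratio of group means of the member regions listed between DCL and control (left) and between PL and DCL (right), with all 3 DCL libraries (filled) and without the first-listed one (open). Dashed lines mark 1.5-fold. Of 16 higher DCL regions 8 stay beyond 1.5-fold, the 2 lower ones do, and 5 of 9 regions lower after PL than DCL do.

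With that first DCL library left out, 8 of the 16 member regions higher after DCL kept a 1.5-fold difference, against 51.4% of all higher regions, and 3 turned round, against 10.2%. Those 3 lay in Map3k12, Mapk9 and Mapk8ip3. The median log2 ratio of the 16 was 1.12 with it and 0.60 without it. Both lower regions, in Mapk8 and Mapk10, kept the difference, as did 99.8% of all lower regions. The first-listed DCL library was the highest of the 3 in 7 of the 9 regions lower after PL than DCL, against 79.5% of all. Without it 1 of the 9 turned round, against 5.73%, and 5 kept a 1.5-fold difference, against 70.4%: those of the Mapk9 and Mapk8ip3 promoters, 1 in Map3k12 and 2 in Mapk10. The part of this library in the other regions was not tested beyond these values.

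In a wider set of 74 pathway genes, 34 (45.9%) had a region between PL and control, against 20.2% of all protein-coding genes, with 12 only higher, 13 only lower and 9 both. Of genes within the members' range of length, 27.1% had one. The wider set was not matched for gene length, here or in the comparisons below, so its shares are no measure of enrichment. Of the upstream kinases and adaptors of JNK 18 of 25 had one (7 only higher, 5 only lower, 6 both), of JNK phosphatases 2 of 6 (1 higher, 1 lower), and of JNK targets and effectors 3 of 16 (1 higher, 2 lower). Genes of DLK turnover and axon degeneration had 6 of 11 (2 only higher, 3 only lower, 1 both), and p38 and ERK cascade kinases 5 of 16 (1 only higher, 2 only lower, 2 both).
Genes were named by rule from the smallest deposited adjusted p. Nmnat2, the axonal NAD-synthesising enzyme whose loss releases Sarm1, had 30.8, 30.0 and 23.1 in PL libraries against 7.36, 11.4 and 11.5 in control libraries (log2 ratio 1.47). Map4k4, a kinase upstream of JNK, was lower (log2 ratio −1.09), and Map3k9, a mixed lineage kinase related to DLK, was higher (log2 ratio 1.32). In all 3 the PL libraries lay apart from control, with adjusted p-values of 0.00146, 0.00152 and 0.00190 in the authors' deposited table.

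Between DCL and control, 46 of the 74 (62.2%) had a region, against 38.3% of all protein-coding genes, 25 only higher, 3 only lower and 18 both. Upstream kinases and adaptors had 19 of 25, phosphatases 5 of 6, targets 4 of 16, turnover and degeneration genes 8 of 11, and p38 and ERK kinases 10 of 16. By the same rule Sh3rf1, Tnik, Mapk14 and Map3k6 were named, all with an adjusted p of 0.000267 in the authors' deposited table. Mapk14, which encodes p38 alpha, had 6.27, 4.48 and 4.61 in DCL libraries against 17.5, 18.0 and 19.8 in control libraries, all apart (log2 ratio −1.85). Sh3rf1, the JNK scaffold POSH, had 84.7, 17.9 and 21.7 in DCL libraries against 8.77, 11.8 and 10.2 in control libraries, again apart, with a log2 ratio of 2.02, 0.95 without the first-listed library and 0.96 rescaled. For Tnik, a kinase of the MAP4K family, the log2 ratio was 1.91, 0.49 without it and 0.75 rescaled, and for Map3k6, a kinase related to ASK1, 1.83, 0.83 and 0.80, both with overlapping groups after rescaling.

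Between PL and DCL, 41 of the 74 (55.4%) had a region, against 30.7% of all protein-coding genes, 1 only higher, 28 only lower and 12 both. Upstream kinases and adaptors had 16 of 25, phosphatases 3 of 6, targets 6 of 16, turnover and degeneration genes 8 of 11, and p38 and ERK kinases 8 of 16. The 4 named by the same rule were all lower after PL, at an adjusted p of 0.000260 in the authors' deposited table. Bbc3, the pro-apoptotic gene Puma, had 5.58, 1.03 and 6.13 in PL libraries against 44.5, 12.2 and 8.78 in DCL libraries (log2 ratio −2.36, and −1.30 without the first-listed DCL library). Usp9x, the deubiquitinase that stabilises DLK, had 8.06, 11.3 and 11.04 in PL libraries against 74.9, 31.0 and 13.2 in DCL libraries (log2 ratio −1.97, and −1.12 without it). Tnik and Sh3rf1 had log2 ratios of −1.997 and −1.84, −0.57 and −0.77 without it, and −0.82 and −0.80 rescaled, where their groups overlapped.

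Marker genes of ganglion cell types also carried regions. Between PL and control these were 3 of 14 sensory neuron markers, 2 of 10 markers of satellite glia and Schwann cells, 0 of 9 immune markers and 3 of 8 vascular and fibroblast markers, against 20.2% of all protein-coding genes. Between DCL and control they were 6, 6, 2 and 5 of the same lists, against 38.3%, and between PL and DCL 4, 5, 1 and 3, against 30.7%. A region in a marker gene gives no level of that cell type, and the part of cell type shares in the member regions was not tested.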

How the data were processed

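5-hmC was measured in 9 enriched libraries, 3 each of PL, DCL and control, and 3 inputs were not analysed here. DNA was sheared to about 250 bp and 5-hmC fragments were captured through a sugar and biotin, per the labels' protocols. The build mm9 and the tools MACS2 2.1.1, Bowtie2 2.2.0 and SAMtools 0.1.19 are listed, without roles, in the submitters' processing notes. The deposited tables give, per region, the normalised read counts of 3 unnumbered libraries per group and the mean signal of each group by the authors. The deposited log2 fold change, p-value and adjusted p-value come from a test that is not given in the sources used here. Listed regions have a window p-value, as deposited, of at most 0.0001.

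From these values, means, SDs, log2 ratios without a pseudocount, libraries lying apart, the value of 1 read (low values were whole reads within 0.1 read) and overlaps of at least 1 bp were computed with python 3.11.15, numpy 2.4.6, pandas 2.3.3 and matplotlib 3.10.9. The calculations were tested on simulated data. Total depth is unknown. The tables hold only selected regions, so no count model was fitted. A gene counted where its name, before any #, was given to a gene body or promoter region, out of 21900 protein-coding genes of GRCm38.p6. Members, lists and rules were chosen with earlier results of these data known. Values in full were those of the region with the smallest deposited adjusted p per member and comparison (ties by larger log2 ratio in size), of promoter regions and of regions overlapping another table, and of 4 wider pathway genes per comparison by the same order, of which 1 is not reported here. The text also gives in full 3 Mapk10 regions outside this rule, chosen after their values were seen, and the other member regions by log2 ratio.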

Additional observations from a re-analysis of the deposited data

Results flagged for a closer look

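The authors' direct comparison sets PL against DCL and lists only regions already selected for a difference. Its DCL libraries are those also used against control, so its values are a description and no further test. It lists 4 member regions that overlap a region listed between DCL and control, all lower in PL than in DCL. None of its member regions overlapped one listed between PL and control, and only 5.25% of all its regions did. The log2 ratio of PL over DCL was −1.17 in the Map3k12 region, and in Mapk8ip3 it was −1.35 for the region 27.4 kb inside the gene, −1.65 for that 3.89 kb inside and −1.26 for the promoter. Without the first-listed DCL library these were −0.08, 0.40, −0.25 and −0.79, and with libraries rescaled to equal sums −0.06, −0.11, −0.44 and −0.40. The promoter kept 1.5-fold without that library but not after rescaling.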

How the results depend on the processing

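No paired analysis was possible because the columns carry no replicate numbers. The 7 regions and 5 members between PL and control became 2 and 2 at a deposited adjusted p under 0.01. Leaving out each library in turn left 7 regions between PL and control, 10 to 18 between DCL and control and 5 to 9 between PL and DCL at 1.5-fold in the same direction. The low ends, 10 and 5, are those without the first-listed DCL library. When libraries were rescaled to equal sums over each table, the median log2 ratio over all listed regions moved to 0.47 (PL against control), 0.20 (DCL against control) and −0.43 (PL against DCL), against 0.72, 1.12 and −1.37 as deposited. Then 4 of 18 regions after DCL (2 higher, 2 lower) and 3 of 9 between the lesions, in 2 members, kept 1.5-fold, and libraries lay apart in 16.7% and 11.1% in place of 50% and 55.6%. Between PL and control all 7 kept 1.5-fold, but libraries lay apart in 71.4% in place of 100%. The share of all listed regions that lay apart after rescaling is not given here. Such rescaling lowers the DCL group relative to the other group by construction, because most listed regions were higher in DCL. It lowers the first-listed DCL library most. Directions turned for Map3k12 after DCL (−0.13 rescaled, −0.10 to 1.35 leaving out each library), for Mapk8ip3 27.4 kb inside the gene after DCL (−0.17 rescaled, −0.73 by medians, −0.67 to 1.53 leaving out each library) and between the lesions (0.25 by medians, −1.79 to 0.40 leaving out each library), and for Mapk9 10.1 kb inside (−0.011 to 1.42 leaving out each library). The turned end is in each case that without the first-listed DCL library. Single log2 ratios kept their direction in all 63 recalculations between PL and control, in 156 of 162 between DCL and control and in 79 of 81 between the lesions. A pseudocount of 1 changed no direction. The 5 overlapping pairs also overlapped by 50% of both regions. Depth limits the lowest values: PL values of 0 to 5.58 in Mapk10 rest on 0 to 9 reads, and DCL values in its region lower after DCL on 2, 1 and 9. PL values in the Map2k4 region lower after PL rest on 11, 4 and 4 reads.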
